A study of Mus musculus with 3 samples.

Results

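Retinoic acid pathway genes were examined in endothelial cells sorted from mouse embryoid bodies, the floating aggregates in which embryonic stem (ES) cells differentiate. The 10 genes were taken from a list made by their roles: Rdh10, Aldh1a1, Aldh1a2 and Aldh1a3 for synthesis, Crabp1 and Crabp2 for binding, Rara, Rarb and Rarg as receptors and Cyp26a1 for breakdown. All 10 were found among the 23397 genes measured, and 6 of them reached 1 FPKM (mapped fragments scaled by transcript length and by library size) in at least 1 library. The groups were SclKO (ES cells with a knockout of Scl, the blood factor now named Tal1), Gata12KO (ES cells labelled Gata1&2KO) and wild type (WT), with 1 library of each. The library of every group was made from Tie2+CD31+CD41- cells at day 4.75, and all 3 ES cell lines were differentiated in the same medium with serum. The labels name no clone number, and nothing says how many cultures were pooled. With 1 library per group no test of any difference was possible, so every difference below describes these 3 libraries.

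Retinoic acid is made from vitamin A (retinol) in 2 steps. Retinol is first oxidized to retinal, in the embryo mainly by Rdh10, and retinal is then oxidized to retinoic acid by an Aldh1a enzyme. Crabp proteins carry retinoic acid in the cell, RAR proteins paired with RXR bind it in the nucleus, and Cyp26 enzymes oxidize it for removal. RAR-RXR pairs bind direct repeats of a 6-base half-site, and Cyp26a1 and Rarb are textbook direct targets. In the embryo the pathway takes part in vascular remodelling, heart patterning and blood formation.

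The starts of those 2 target genes are shown because each holds such a repeat, while their levels in these cells were far apart. RefSeq start windows (build GRCm38.p6, 250 bases before to 50 bases after a start) were found for 7 members in 12 windows, and none was found for Aldh1a3, Rdh10 and Crabp2. The search took as half-site AGGTCA, its common variant spelled AGTTCA, or each with a changed start, which reads GGGTCA for the one and has the letters GGTTCA for the other. It asked for 2 half-sites in the same orientation with 1, 2 or 5 bases between them, on both strands, and the repeats with 5 bases are shown. The 150 bases before each start follow, 5′ to 3′ on the gene's strand, with the half-sites in capitals.
Cyp26a1, chr19:37697658-37697807, forward strand: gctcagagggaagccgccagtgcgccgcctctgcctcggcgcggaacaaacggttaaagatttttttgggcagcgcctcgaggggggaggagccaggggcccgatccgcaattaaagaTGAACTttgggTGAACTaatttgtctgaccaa
Rarb, chr14:16575477-16575626, reverse strand: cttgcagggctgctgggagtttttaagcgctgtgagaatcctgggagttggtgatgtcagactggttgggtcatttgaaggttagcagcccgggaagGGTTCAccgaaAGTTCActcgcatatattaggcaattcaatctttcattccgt

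Read in the orientation of the half-sites, the 2 repeats are alike, and in Cyp26a1 the repeat lies on the opposite strand to the gene.
Cyp26a1 repeat, bases -32 to -16: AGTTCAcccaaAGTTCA
Rarb repeat, bases -53 to -37: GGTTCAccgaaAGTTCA
No other member window held this repeat. Of all 32851 windows in the table, 32 held it, or 0.0974%. Among 12 genes with a window on a list of 24 known retinoic acid response genes, 0 held it. Repeats with 1 or 2 bases between the half-sites lay in 73 and 88 of all windows (0.222% and 0.268%), and in no member window. Bco1, on the list for retinol uptake, storage and oxidation, held one with 1 base between. A match of letters describes the sequence and shows no binding.

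Depth and the targeted genes were looked at first. For genes with a single entry, the deposited bounds around each FPKM lie 2 Poisson standard deviations away. This gives 28.3M, 50.3M and 31.6M mapped fragments in SclKO, Gata12KO and WT, and from these the fragments behind each value. Intervals and bounds of such genes therefore cover counting error only. For genes with several entries the bounds can be wider and give too few fragments, as for Meis1 in WT (5.96 FPKM, 2.25 to 12.2). No bounds cover variation between replicate libraries. Tal1 had 1.59, 38.7 and 51.0 FPKM in SclKO, Gata12KO and WT. Gata1 was listed at 0 in SclKO and had 5.66 FPKM in Gata12KO and 4.64 in WT, and Gata2 had 5.81, 44.9 and 12.0 in the same order. Gata1 and Gata2 were thus not lower in the Gata12KO library than in WT, which goes against its label, although a deleted exon need not show in a whole-transcript value. The text therefore speaks of the library labelled Gata12KO, and every direction drawn from it carries that limit. The 8 endothelial markers were above 1 FPKM in every library and summed to 209 FPKM in SclKO, 536 in the library labelled Gata12KO and 440 in WT. The 6 blood markers summed to 1.16, 25.1 and 182 FPKM in the same order, with Ptprc under 0.01 in each. Most of the WT sum came from the globin genes Hbb-bh1 (76.8 FPKM) and Hba-x (71.3). In the library labelled Gata12KO these had 5.66 and 0 FPKM, while Itga2b had 17.6 there and 22.8 in WT and was not called between them.

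Calls rest on size alone: 1 FPKM in any library, a ratio of (FPKM + 1) of at least 2-fold, and bounds of both libraries that did not overlap. Ratios are on the log2 scale of FPKM + 1, on which changes of low genes look smaller than they are, and the range after a ratio combines the bounds of both libraries. Against WT, 1 of the 6 members above the minimum was called in SclKO, Cyp26a1 lower, where 6.36% of the 11080 genes above the minimum were called. The library labelled Gata12KO had 2 of these 6 called against WT, Cyp26a1 higher and Crabp1 lower, where 4.51% of such genes were called. Set against SclKO it had the same 2 of 6 called in those directions, where 7.14% of such genes were called. The other 4 of the 10 members could not be called at their levels. Bounds at any fold did not overlap for 4, 3 and 4 of the 6 members above the minimum in the 3 comparisons, beside 58.0%, 61.8% and 58.3% of such genes. With so few members, these shares do not set the list apart from other genes. The median log2 ratio over all 10 members was -0.03, -0.02 and -0.03 in the 3 comparisons, and over all 23397 genes it was 0.00 in each. Over the 6 members above the minimum it was 0.22, 0.09 and -0.37, beside -0.03, -0.08 and -0.06 over the 11080 genes above it.

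**Figure D1:**
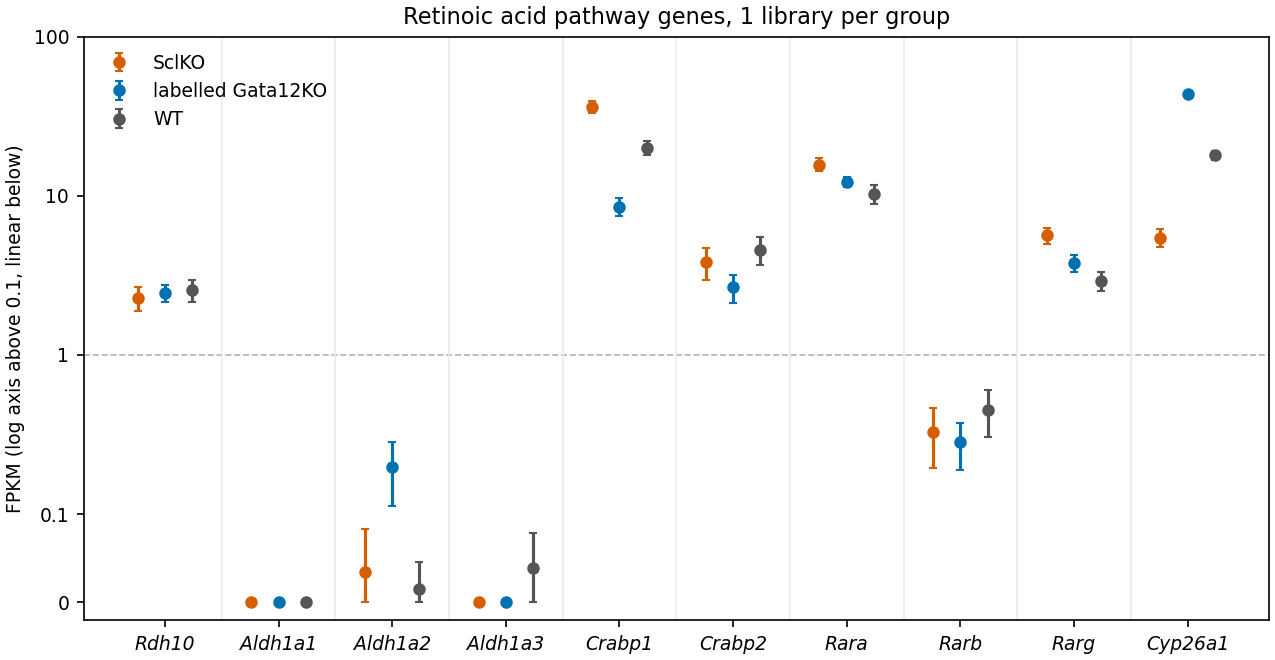
FPKM of the 10 genes (y axis, logarithmic above 0.1 and linear below) in SclKO, the library labelled Gata12KO and WT, 1 library each, with points at the deposited FPKM, bars over the deposited bounds and a dashed line at 1 FPKM. Cyp26a1 runs from 5.45 to 43.6 FPKM, while the 3 Aldh1a genes lie below 0.3 in all 3 libraries.

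The second step of synthesis was hardly represented in any library. Aldh1a1 (chromosome 19, 20676472 to 20717952 on mm9, forward strand, 13 exons), an enzyme of liver, eye and stem cells, was listed at 0 in all 3 libraries. At its length, 3 fragments would be 0.0579 FPKM in SclKO, 0.0320 in the library labelled Gata12KO and 0.0514 in WT. Aldh1a3 (chromosome 7, 73535779 to 73572363, reverse strand, 13 exons), known from the eye and nasal region of the embryo, was listed at 0 in SclKO and in the library labelled Gata12KO. In WT it had 0.0394 FPKM, from 4 fragments.

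Aldh1a2 (chromosome 9, 71063596 to 71144050, forward strand, 14 exons) is the main retinoic acid-producing enzyme of early mouse mesoderm. It had 0.0342 FPKM in SclKO, 0.199 in the library labelled Gata12KO and 0.0152 in WT, from 2, 21 and 1 fragments. The library labelled Gata12KO thus held 13.1-fold more than WT, with a 95% exact interval of 2.10 to 541-fold, and 5.81-fold more than SclKO (1.42 to 51.1). All 3 levels were far below the minimum of 1 FPKM, so Aldh1a2 was not called in any comparison. Aldh1a2 also marks epicardium and mesothelium in the embryo. The 6 markers fixed for those tissues summed to 1.89 FPKM in SclKO, 0.539 in the library labelled Gata12KO and 1.21 in WT, with Msln at 0 in all 3. That sum was carried by Tcf21 (1.51, 0.393 and 0.606 FPKM in the same order). The 6 markers fixed for paraxial and somitic mesoderm, of which 2 reached 1 FPKM, summed to 1.24, 5.17 and 3.58 FPKM in the same order. Of these 6 markers, 1 was called lower in SclKO against WT, and 1 was called higher in the library labelled Gata12KO against SclKO. In the library labelled Gata12KO against WT 0 were called. Of their ratios in that library, 2 were positive and 3 negative against WT, and likewise against SclKO. With the length trend removed, 5 were positive and 1 negative in each of these 2 comparisons. The part of cells of either kind in the Aldh1a2 values was not tested.

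The first step was present at a low and even level. Rdh10 (chromosome 1, 16095963 to 16122631, forward strand, 6 exons), which oxidizes retinol to retinal, had 2.28 FPKM (1.88 to 2.67) in SclKO, 2.45 (2.14 to 2.75) in the library labelled Gata12KO and 2.55 (2.16 to 2.94) in WT. The bounds of all 3 overlapped, and the log2 ratios were -0.12 in SclKO and -0.04 in the library labelled Gata12KO against WT. With 135, 262 and 170 fragments behind these values, the combined range in SclKO against WT was -0.45 to 0.22, so a difference within it was not detectable at this depth.

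Of 23 other genes for retinol uptake, storage and oxidation, 9 reached 1 FPKM. Against WT, 0 were higher and 1 lower in SclKO and likewise in the library labelled Gata12KO, and 0 were called between the library labelled Gata12KO and SclKO. The called gene was in both cases Dhrs3, which reduces retinal back to retinol and so lowers the supply for retinoic acid. It had 3.00 FPKM in SclKO, 3.07 in the library labelled Gata12KO and 15.0 in WT, with log2 ratios of -2.00 and -1.97 against WT. Both comparisons share the WT library. Adh5, an alcohol dehydrogenase that mainly clears formaldehyde, was the most abundant of the list with 108, 84.6 and 138 FPKM in SclKO, the library labelled Gata12KO and WT. The retinal reductase Rdh11 had 9.69, 7.95 and 7.87 FPKM and Dhrs4 had 7.82, 8.67 and 6.22, in the same order. Rdh13 was even, with 4.87 FPKM in SclKO and 4.78 in WT. Adh1, Adh4 and Adh7 were listed at 0 in every library.

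Among binding proteins, Crabp1 and Crabp2 differed in level and in pattern. Crabp1 (chromosome 9, 54612615 to 54620916, forward strand, 4 exons), which binds retinoic acid in the cytoplasm, had 36.3 FPKM (33.2 to 39.4) in SclKO, 8.56 (7.47 to 9.65) in the library labelled Gata12KO and 20.1 (18.0 to 22.3) in WT, from 557, 247 and 353 fragments. SclKO stood highest, the library labelled Gata12KO lowest, and the bounds of all 3 were apart. Crabp1 was 1422nd of 22627 genes by level in SclKO, 5086th in the library labelled Gata12KO and 2641st in WT, counting genes whose transcripts reach 300 nt.

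The log2 ratio of Crabp1 in SclKO against WT was 0.82 (0.56 to 1.09), under the 2-fold limit. In the library labelled Gata12KO it was -1.14 (-1.46 to -0.83) against WT and -1.97 (-2.25 to -1.69) against SclKO, and both were called lower. Its transcript is short, at 741 nt, and ratios in this series follow transcript length. With that trend removed the ratio in SclKO against WT became 1.16, past the limit, and the ratio in the library labelled Gata12KO against WT became -0.53, within it. Rescaling to the library sum (TPM) gave -0.51 in the library labelled Gata12KO against WT, and rescaling to transcripts of 300 nt or longer gave -0.90, also within the limit. The ratio to SclKO stayed past the limit in all settings tried, between -2.07 and -1.21.

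Crabp1 is abundant in embryonic mesenchyme, and the summed level of markers of lateral plate and extraembryonic mesenchyme had the same order in these libraries. The 8 genes summed to 284 FPKM in SclKO, 78.9 in the library labelled Gata12KO and 97.5 in WT, of which Hand1 alone gave 209, 61.7 and 72.2. Single markers did not all have that order: Foxf1, Pdgfrb and Tbx4 were lower in WT than in the library labelled Gata12KO, and as TPM 5 of 8 ratios of that library to WT were positive. None of the 8 was at 0 in any library. Of the 8, 5 were higher and 0 lower in SclKO against WT, while the library labelled Gata12KO had 0 higher and 7 lower against SclKO, where the calls of Hand1, Foxf1, Pdgfrb and Postn ended as TPM. Against WT 1 of 8 was higher in the library labelled Gata12KO, Foxf1 (2.53 FPKM, and 0.722 in WT), and 0 were lower. The summed level of 8 endoderm and epithelium markers also had the order of Crabp1, with sums of 140, 38.9 and 91.0 FPKM that rested on Krt8 and Krt18, while the defining endoderm gene Afp was at 0 in SclKO and in the library labelled Gata12KO. Whether cells of either kind contribute to the Crabp1 values was not tested. In a sorted pool, fewer cells of a type and less RNA per cell cannot be told apart.

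Crabp2 (chromosome 3, 87752615 to 87757294, forward strand, 4 exons), which delivers retinoic acid to nuclear receptors, was lower in level than Crabp1 in every library. It had 3.83 FPKM (2.95 to 4.71) in SclKO, 2.66 (2.12 to 3.19) in the library labelled Gata12KO and 4.58 (3.68 to 5.49) in WT, from 76, 98 and 103.5 fragments. The bounds of SclKO overlapped with those of both other libraries, and those of the library labelled Gata12KO and WT did not overlap. The log2 ratio between these was -0.61 (-1.06 to -0.16), under the 2-fold limit, and became -0.09 with the length trend removed and -0.08 as TPM. Fabp5, a fatty acid-binding protein that can also carry retinoic acid, was the most abundant carrier, with 50.0 FPKM in SclKO, 32.5 in the library labelled Gata12KO and 56.3 in WT, and was not called in any comparison.

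**Figure D2:**
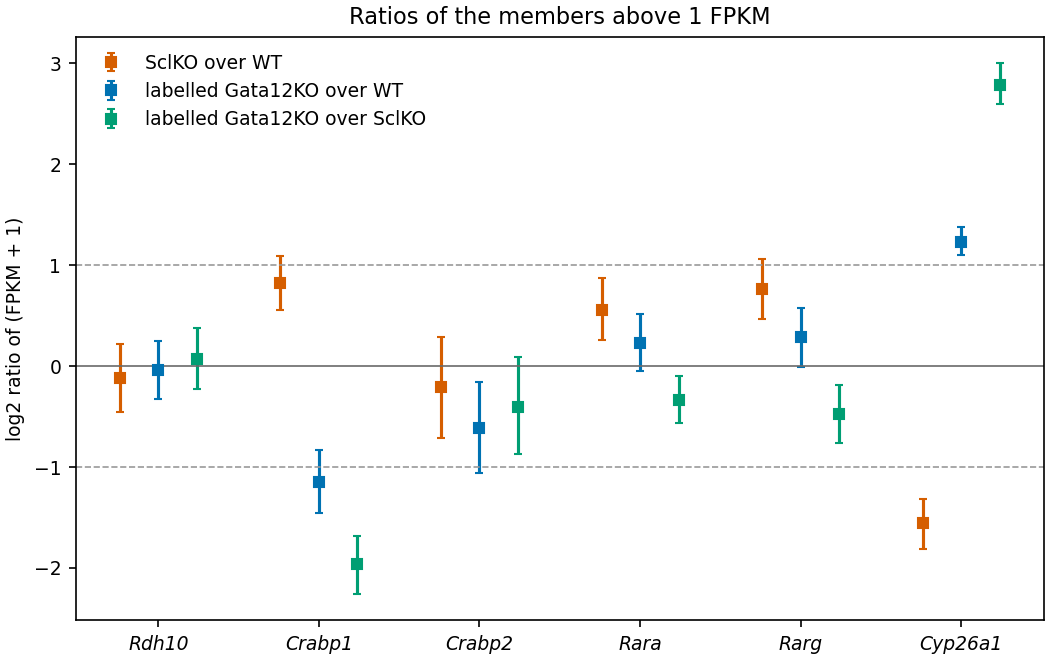
Log2 ratios of (FPKM + 1) for the 6 members above 1 FPKM (y axis), in SclKO over WT, the library labelled Gata12KO over WT and the library labelled Gata12KO over SclKO, with bars that combine the bounds of both libraries and dashed lines at 2-fold. Cyp26a1 lies past a dashed line in all 3 comparisons, and Crabp1 in both that involve the library labelled Gata12KO.

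Of the receptors, Rara and Rarg were present and Rarb was nearly absent. Rara (chromosome 11, 98799010 to 98836256, forward strand, 4 entries), the most widely expressed RAR, had 15.7 FPKM (14.2 to 17.2) in SclKO, 12.2 (11.3 to 13.2) in the library labelled Gata12KO and 10.3 (8.92 to 11.7) in WT. SclKO stood apart from both others, whose bounds overlapped. Rarg (chromosome 15, 102065371 to 102087914, reverse strand, 2 entries), prominent in mesenchyme and early mesoderm, had 5.64 FPKM (4.97 to 6.31) in SclKO, 3.77 (3.30 to 4.23) in the library labelled Gata12KO and 2.91 (2.51 to 3.32) in WT. Here too SclKO stood apart, and the bounds of the other libraries overlapped narrowly. The log2 ratio in SclKO against WT was 0.56 (0.26 to 0.87) for Rara and 0.77 (0.47 to 1.06) for Rarg, neither of which was called. Both ratios were positive under every setting tried, and that of Rarg reached 1.03, a call, after rescaling to transcripts of 300 nt or longer. For the library labelled Gata12KO the ratios of Rara and Rarg were 0.23 and 0.29 against WT, and became 0.89 and 0.88 as TPM and 0.54 and 0.63 after rescaling to transcripts of 300 nt or longer. Against SclKO they were -0.33 and -0.48, and turned to 0.44 and 0.21 as TPM.

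Each RAR gene has an upstream and a downstream promoter that give proteins with different N-terminal ends. Entries of both kinds are listed for Rara and Rarg, while Rarb has 1 entry. For Rara the entry with the most upstream start, NM_009024, had 8.85 FPKM in SclKO, 6.88 in the library labelled Gata12KO and 5.19 in WT. The entry starting 22.8 kb downstream, NM_001176528, had 6.84, 5.36 and 3.85 FPKM in the same order. The upstream entry thus held 56.4%, 56.2% and 50.4% of the gene's summed FPKM, and both entries had the same order of libraries. Another entry, NM_001177303, starting 2.02 kb downstream, had 1.27 FPKM (0.946 to 1.58) in WT, or 12.3% of the gene, and under 0.001 in both other libraries. The fragments of overlapping entries are shared out by estimation, so the split is less certain than the sum.

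For Rarg nearly all fragments were assigned to the downstream start. NM_001042727, whose first base lies 11.1 kb downstream of the other entry, had 5.55 FPKM in SclKO, 3.53 in the library labelled Gata12KO and 2.91 in WT. It held 98.4%, 93.6% and 100% of the gene's FPKM in the 3 libraries. The upstream entry, NM_011244, had 0.0884 FPKM (0 to 0.182) in SclKO, 0.241 (0.129 to 0.353) in the library labelled Gata12KO and near 0 (up to 0.0232) in WT. It was highest in the library labelled Gata12KO, where its bounds were as wide as those of 18.6 fragments.

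**Figure D3:**
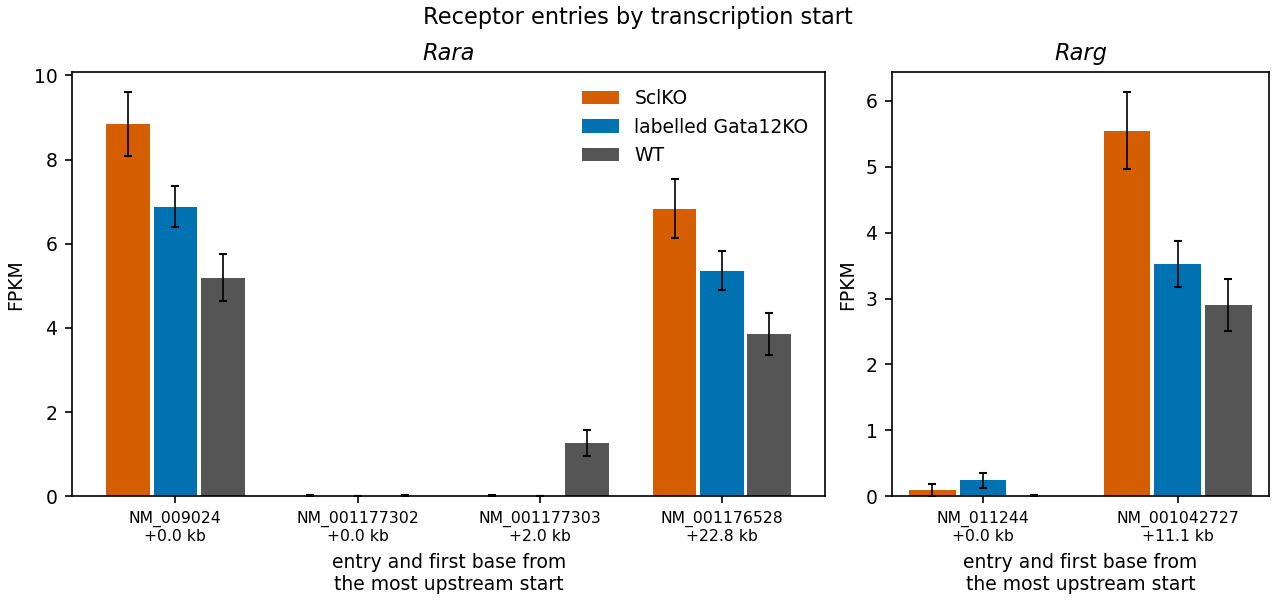
FPKM of each entry of Rara and Rarg (y axis), ordered by the distance of its first base from the most upstream start, in SclKO, the library labelled Gata12KO and WT, with bars over the deposited bounds. Both main Rara entries descend in the order SclKO, library labelled Gata12KO and WT, and Rarg rests on the start 11.1 kb downstream.

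Rarb (chromosome 14, 17263354 to 17407724, reverse strand, 8 exons), the receptor gene that retinoic acid itself induces, did not reach 1 FPKM. It had 0.329 FPKM (0.195 to 0.464) in SclKO, 0.282 (0.189 to 0.375) in the library labelled Gata12KO and 0.452 (0.304 to 0.601) in WT, from 24, 37 and 37 fragments. All bounds overlapped. The repeat shown above lies just before its start.

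Of 14 RXR partners and coregulators, 13 reached 1 FPKM. SclKO against WT had 0 higher and 0 lower. Against WT, and likewise against SclKO, the library labelled Gata12KO had 1 higher and 0 lower. That gene was Nr2f2, an orphan receptor of venous identity that can compete at retinoic acid elements, with 3.38 FPKM in SclKO, 10.3 in the library labelled Gata12KO and 4.07 in WT. The RXR partners were even when entries were summed. Rxra had 3.99 FPKM in SclKO, 3.99 in the library labelled Gata12KO and 4.20 in WT, Rxrb had 6.36, 6.56 and 5.07, and Rxrg had 0.222, 0.197 and 0.0849. With the highest entry alone, Rxrb was called lower in SclKO against WT (-1.46) and higher in the library labelled Gata12KO against SclKO (2.02). The corepressor Ncor1 (26.2, 25.2 and 26.9 FPKM) and the coactivators Ep300 (21.9, 24.7 and 20.8) and Crebbp (20.9, 19.1 and 15.3) were among the most abundant, with values in the same order of libraries.

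Among the 6 members above the minimum, the largest ratio in each comparison was that of Cyp26a1. Cyp26a1 (chromosome 19, 37772298 to 37776026, forward strand, 7 exons), the main retinoic acid-degrading enzyme of the early embryo, had 5.45 FPKM (4.75 to 6.15) in SclKO, 43.6 (42.1 to 45.1) in the library labelled Gata12KO and 18.0 (16.8 to 19.1) in WT. These rest on 244, 3542 and 905.5 fragments. SclKO stood lowest and the library labelled Gata12KO highest, with bounds far apart. By level Cyp26a1 was 6633rd of 22627 genes in SclKO, 1070th in the library labelled Gata12KO and 2921st in WT.

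SclKO held 3.29-fold less Cyp26a1 than WT, a log2 ratio of -1.55 (-1.81 to -1.31) on the scale with 1 FPKM added. The library labelled Gata12KO held 2.43-fold more than WT (1.23, range 1.10 to 1.37) and 8.00-fold more than SclKO (2.79, range 2.59 to 3.00). Of 11080 genes above the minimum, Cyp26a1 had the 215th lowest ratio in SclKO against WT. It had the 58th highest in the library labelled Gata12KO against WT and the 41st highest against SclKO. It was called in the same direction in all 3 comparisons under all settings tried. These ran from -1.70 to -1.43, from 1.23 to 1.92 and from 2.79 to 3.60 on the log2 scale.

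The summed endothelial markers, given above, had the same order of libraries as Cyp26a1, although Tie1, Esam and Emcn were highest in WT. Of 8 markers 0 were higher and 3 lower in SclKO against WT (Cdh5, Esam and Tie1), while the library labelled Gata12KO had 2 higher and 0 lower against WT (Kdr, and Flt1, whose ratio of 1.08 became 0.96 with the length trend removed). The VEGF receptor Kdr had 31.6 FPKM in SclKO, 96.3 in the library labelled Gata12KO and 42.1 in WT, and the junction gene Cdh5 had 42.9, 141 and 116. The genes of the antigens sorted for, CD31 and Tie2, had 50.4, 66.5 and 48.3 FPKM (Pecam1) and 42.4, 62.9 and 62.9 (Tek). Neither was called in any comparison as reported, but both were called higher in the library labelled Gata12KO against SclKO as TPM (1.21 and 1.37). Itga2b, the gene of CD41, which was sorted against, had 0.333 FPKM in SclKO, 17.6 in the library labelled Gata12KO and 22.8 in WT. It was called lower in SclKO against WT, with a log2 ratio of -4.16. The part of endothelial content in the Cyp26a1 values was not tested.

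The other Cyp26 genes were low. Cyp26b1, which guards the hindbrain and limb of the embryo, had 0.204 FPKM (0.124 to 0.3) in SclKO, 0.692 (0.582 to 0.811) in the library labelled Gata12KO and 1.54 (1.33 to 1.76) in WT. It was called lower in SclKO against WT, with a log2 ratio of -1.07, and WT rather than the library labelled Gata12KO stood highest. Cyp26c1 had 0.0781, 0.643 and 0.392 FPKM in SclKO, the library labelled Gata12KO and WT, under the minimum. Of the 3 genes on the list of other binding and breakdown genes, Cyp26b1 was the 1 call in SclKO against WT. In the other comparisons 0 were called as reported. With a pseudocount of 0.1, Cyp26b1 in the library labelled Gata12KO was called higher against SclKO (1.38) and lower against WT (-1.04). After rescaling to transcripts of 300 nt or longer, Cyp26b1 (1.15) and Cyp26c1 (1.52) were called higher there against SclKO. As TPM Cyp26c1 was called higher there against SclKO (1.01). Summed FPKM of the Cyp26 family therefore rested mainly on Cyp26a1 in every library.

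Within SclKO the members ranked Crabp1, Rara, Rarg, Cyp26a1, Crabp2 and Rdh10 by FPKM, with overlapping bounds for Rarg and Cyp26a1. Within the library labelled Gata12KO the order was Cyp26a1, Rara, Crabp1, Rarg, Crabp2 and Rdh10, and the bounds of the last pair overlapped. Within WT it was Crabp1, Cyp26a1, Rara, Crabp2, Rarg and Rdh10, with overlap between Crabp1 and Cyp26a1 and between Rarg and Rdh10. Rarb and the 3 Aldh1a genes followed in each. The place of Cyp26a1 thus differed between libraries.

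Genes known to respond to retinoic acid in mouse embryos or stem cells were read from a list of 24, which shares Dhrs3, Cyp26b1 and other genes with the lists above. Of these, 1 was higher and 5 were lower in SclKO against WT, and 16 of the 24 reached the minimum. Of the 11080 genes above the minimum, 2.12% were higher and 4.24% lower in that comparison. The library labelled Gata12KO had 1 higher and 2 lower against WT (0.767% and 3.75% of genes above the minimum), and 5 higher and 3 lower against SclKO (3.38% and 3.75%). The median log2 ratio over the 24 was -0.34, -0.10 and 0.16 in the 3 comparisons, beside 0.00 over all genes. Over the 16 above the minimum it was -0.45, -0.21 and 0.22, beside -0.03, -0.08 and -0.06 over the 11080 genes above it. For SclKO against WT, 17 of 24 ratios were negative in every setting tried, with 5 to 7 lower and 0 to 3 higher calls. For the library labelled Gata12KO against WT 17 of 24 were negative, but 8 of 24 as TPM and 10 of 24 after rescaling to transcripts of 300 nt or longer.

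The response genes did not move together. Tgm2, a transglutaminase induced by retinoic acid in many cells, had 1.49 FPKM (1.24 to 1.74) in SclKO, 34.1 (33.2 to 35.0) in the library labelled Gata12KO and 37.1 (35.9 to 38.3) in WT. The trunk homeobox gene Hoxb5 had 2.23, 17.6 and 20.5 FPKM in the same order, and Hoxb4 had 2.76, 8.48 and 8.61. All 3 were low in SclKO alone, unlike Cyp26a1, which also differed between the library labelled Gata12KO and WT. Hoxb1, the hindbrain gene with a well-known retinoic acid enhancer, had 0.282 FPKM (0.137 to 0.428) in SclKO, 4.90 (4.45 to 5.35) in the library labelled Gata12KO and 1.46 (1.14 to 1.77) in WT. Its order of libraries was that of Cyp26a1. It was called higher in the library labelled Gata12KO, with log2 ratios of 1.26 against WT and 2.20 against SclKO, and its ratio of -0.94 in SclKO against WT was under the limit but became -1.03 as TPM and -1.53 after rescaling to transcripts of 300 nt or longer.

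Meis2, Rarres2 and Pdgfra were highest in SclKO. Meis2, a cofactor of Hox proteins, had 9.20 FPKM in SclKO, 3.71 in the library labelled Gata12KO and 3.67 in WT, and was the 1 gene called higher in SclKO against WT. That call ended (0.87) when the highest entry alone was used, and its lower call in the library labelled Gata12KO against SclKO ended as TPM (-0.44). Rarres2, which encodes the secreted protein chemerin, had 5.01 FPKM (3.77 to 6.24) in SclKO, 0.131 (0 to 0.296) in the library labelled Gata12KO and 2.25 (1.45 to 3.05) in WT. Against both others it was called lower in the library labelled Gata12KO, but with the length trend removed its ratio to WT became -0.89, under the limit. In SclKO against WT its ratio of 0.89 was under the limit but became 1.12 with a pseudocount of 0.1, 1.20 after rescaling to transcripts of 300 nt or longer and 1.22 with the length trend removed. Pdgfra, a growth factor receptor of mesenchyme that is also on the marker list above, had 9.36, 2.06 and 4.56 FPKM. It was called lower in the library labelled Gata12KO against SclKO (-1.76). Its ratio of 0.90 in SclKO against WT became 1.02 with a pseudocount of 0.1 and 1.14 after rescaling to transcripts of 300 nt or longer. In the library labelled Gata12KO against WT its ratio was -0.86. That became -1.11 with a pseudocount of 0.1 or the highest entry alone, and -1.01 with the length trend removed. These genes shared the order of libraries seen for Crabp1, apart from Meis2, whose values in the library labelled Gata12KO and WT overlapped. Fgf8, a tail bud factor that retinoic acid represses, had 1.57 FPKM (0.613 to 2.67) in SclKO, 6.54 (3.47 to 10.9) in the library labelled Gata12KO and 3.11 (1.55 to 4.70) in WT. Its values had the order of Cyp26a1, but the bounds of WT overlapped with those of both other libraries. It was called higher in the library labelled Gata12KO against SclKO.

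Among the more abundant response genes with no call were Zfp703, Bhlhe40 and Meis1. Zfp703 had 8.22, 4.61 and 4.61 FPKM in SclKO, the library labelled Gata12KO and WT, and Bhlhe40 had 6.31, 7.62 and 7.99. Meis1 had 4.28, 2.29 and 5.96, but its bounds in WT ran from 2.25 to 12.2, so that its log2 ratio of -1.08 in the library labelled Gata12KO against WT was not called. With the highest entry alone it was called lower against WT in SclKO (-1.51) and in the library labelled Gata12KO (-2.41). Stra8, induced by retinoic acid in germ cells, was listed at 0 in all 3 libraries.

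**Figure D4:**
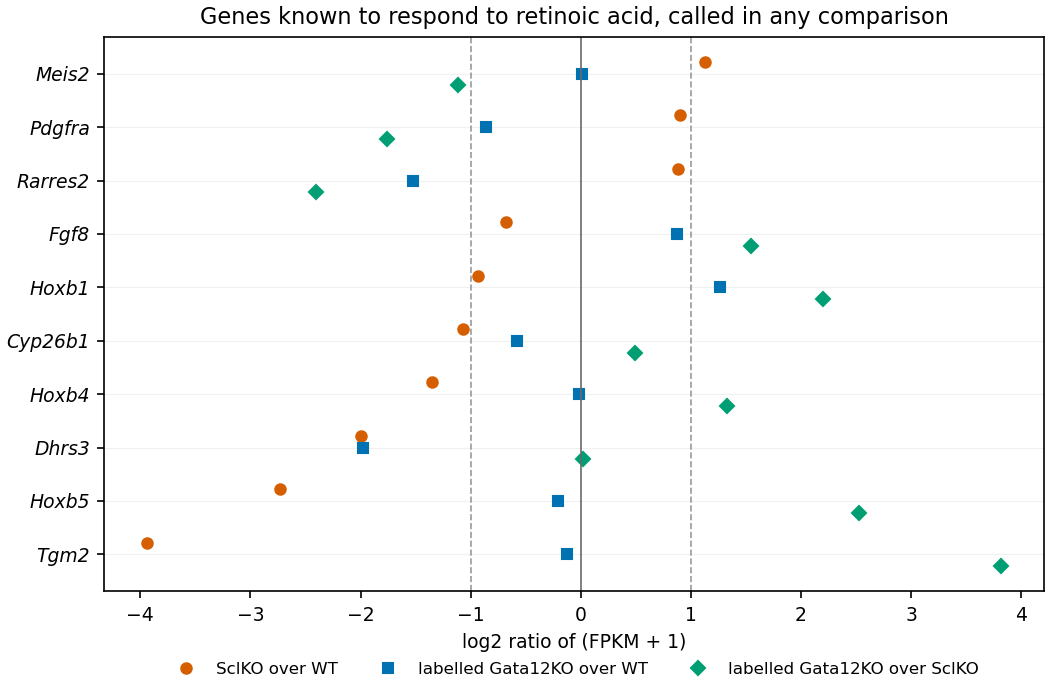
Log2 ratios of (FPKM + 1) for the 10 response genes called in any comparison (rows, ordered by SclKO over WT), in SclKO over WT, the library labelled Gata12KO over WT and the library labelled Gata12KO over SclKO, with dashed lines at 2-fold. Tgm2, Hoxb5 and Hoxb4 lie near 0 in the library labelled Gata12KO over WT and past -1 in SclKO over WT, and Dhrs3 lies near -2 in both.

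Genes with a pattern most like the 2 called members were found by the distance between log2(FPKM + 1) values over the 3 libraries, each gene centred on its own mean, among 10477 named genes. Nearest to Cyp26a1 were Stab1, a scavenger receptor of sinusoidal endothelium (0.188 FPKM in SclKO, 7.57 in the library labelled Gata12KO and 3.14 in WT), the LIM homeobox gene Lhx6 (0.142, 5.43 and 2.28) and the adrenomedullin receptor gene Calcrl (3.96, 37.6 and 18.2). Their distances were 0.18, 0.23 and 0.28 log2 units. Nearest to Crabp1 were Asb12 (5.66, 0.727 and 2.89 FPKM in the same order), the matrix gene Fbln2 (10.5, 1.88 and 5.10) and the hindlimb homeobox gene Pitx1 (15.3, 3.47 and 8.18), at 0.03, 0.07 and 0.08. With 3 libraries such likeness describes the order and spacing of 3 values.

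Processing settings changed the calls of Crabp1 and Rarg but not that of Cyp26a1. Rescaling moved all genes together: as TPM the median gene shifted by -0.11 in SclKO against WT, by 0.60 in the library labelled Gata12KO against WT and by 0.72 against SclKO. Relative to that shift the TPM ratios of Cyp26a1 were still past 2-fold in the same direction in each comparison.

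**Figure D5:**
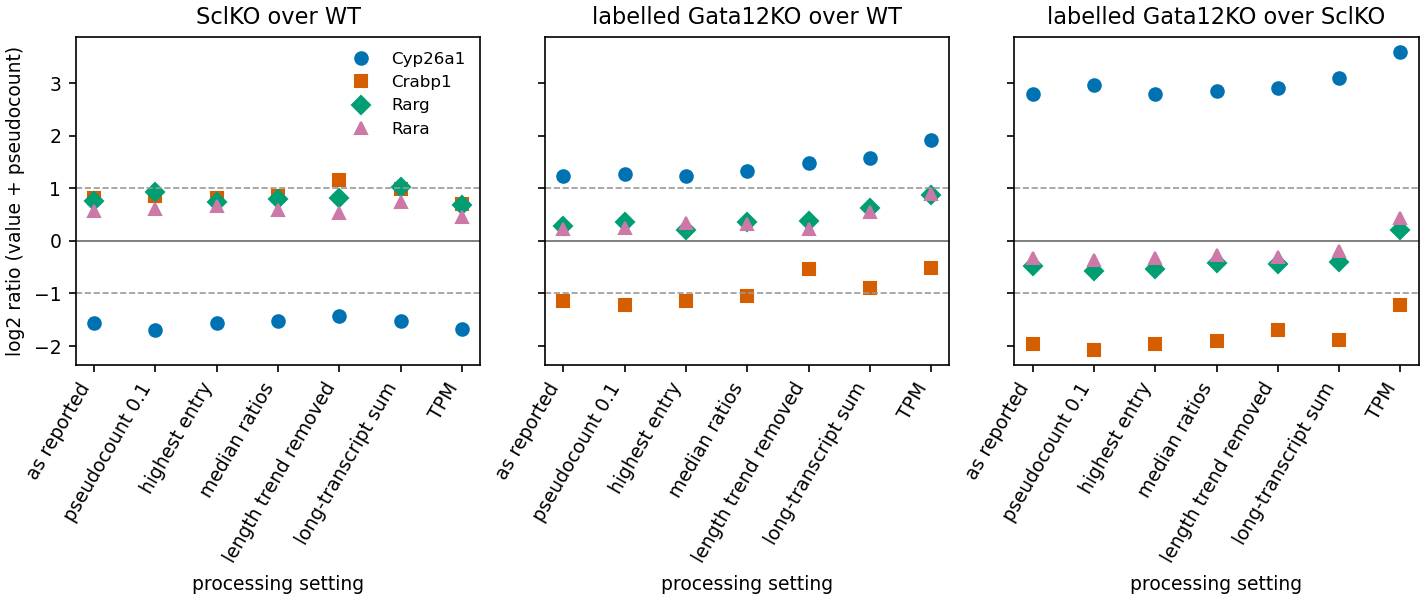
Log2 ratios of Cyp26a1, Crabp1, Rarg and Rara (y axis) under the reported setting and 6 alternatives (x axis), in SclKO over WT, the library labelled Gata12KO over WT and the library labelled Gata12KO over SclKO, with dashed lines at 2-fold. Cyp26a1 stays past the lines throughout, and Crabp1 comes within them in the library labelled Gata12KO over WT with the length trend removed (-0.53), after rescaling to transcripts of 300 nt or longer (-0.90) and as TPM (-0.51).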

How the data were processed

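Per the labels' protocols, sorted-cell RNA went through Nugen's Encore Complete library kit and was sequenced as 50 nt reads (Illumina HiSeq). The authors deposited 1 transcript file per library that holds FPKM values with confidence bounds and names Cufflinks as its source. The submitters' processing notes name TopHat2 2.0.4, Cufflinks 2.0.1, Cuffdiff, mm9 and hg19, with no role for each. Gene coordinates come from the files and are taken as mm9, and those of start windows are on GRCm38.p6. No source used here states whether counting used strand, so reads from a gene and from an antisense partner may be mixed. Each file lists 30123 RefSeq entries. Of 29646 accessions 29063 were named by the RefSeq gene table, 173 by GENCODE and 410 by neither. In the Gata12KO file 136 entries had a different accession and were matched on position and exons, and 134 entries with differing symbols were left out. FPKM and bounds were summed per symbol (pandas 2.3.3). Fragments were derived from the bounds, and 22 of 24 member values with a single entry came within 0.01 of a whole number.

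Alternatives were a pseudocount of 0.1, no minimum, TPM, rescaling to the FPKM sum of transcripts at least 300 nt long, median ratios, removal of a length trend (running median over 501 genes) and the highest entry alone. Members, lists and alternatives were chosen with earlier results of these data known. The rule for named genes took all members, list genes called in any comparison, up to 4 more per list by FPKM, and 3 genes most like each called member. Rxra, Rxrb, Rxrg, Adh1, Adh4, Adh7, Stra8, Cyp26c1, Hand1 and Foxf1 were added after their values were seen, as were the markers named. Some list genes count in their list but are not reported here by name.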

Additional observations from a re-analysis of the deposited data

How the results depend on the processing

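No paired analysis was possible because each group has 1 library. Cyp26a1 kept its direction and its calls in all 3 comparisons under all alternatives run. With 1 call of 10 members in SclKO against WT as reported, 2 were called with the length trend removed (Crabp1 added) and 2 after rescaling to transcripts of 300 nt or longer (Rarg added). With 2 calls in the library labelled Gata12KO against WT, 1 was left under each of those settings and 1 as TPM, since Crabp1 came under 2-fold. The member median in the library labelled Gata12KO became 0.21 against WT and 0.22 against SclKO as TPM. This rescaling shifts all genes, and in each library most of the FPKM sum it divides by came from transcripts shorter than 300 nt. That sum was 966023 FPKM in SclKO, 547471 in the library labelled Gata12KO and 886148 in WT. Calls over all genes, 705 in SclKO against WT, 500 in the library labelled Gata12KO against WT and 791 against SclKO, became 1219, 943 and 1285 with a pseudocount of 0.1. They became 1326, 912 and 1404 after rescaling to transcripts of 300 nt or longer, which lessens the weight of the pseudocount. As TPM the library labelled Gata12KO had 1466 and 2296 against WT and SclKO, and with the length trend removed it had 325 against WT. Among these calls, the share that was lower in SclKO against WT was 66.7% as reported and 51.7% after rescaling to transcripts of 300 nt or longer. In the library labelled Gata12KO against WT it was 83.0% as reported, 8.05% as TPM, 40.0% after that rescaling, 71.4% by median ratios and 52.0% with the length trend removed. Against SclKO it was 52.6% as reported, 5.31% as TPM and 40.7% after that rescaling. The causes of the other moves were not tested. Dropping the minimum changed no count, since a 2-fold change with 1 added needs at least 1 FPKM. Depth limits Aldh1a1, Aldh1a2, Aldh1a3 and Rarb most, with 0 to 37 fragments each.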

Other observations

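The 5-base repeat shown for Cyp26a1 and Rarb was also looked for in the windows of all measured genes. Of 31 genes in the table that hold it, 12 were measured and 4 reached 1 FPKM: Cyp26a1, Blvrb, Hbb-y and Cfap45. Blvrb, a biliverdin reductase of red cells, had 30.1 FPKM in SclKO, 15.5 in the library labelled Gata12KO and 39.4 in WT. The embryonic globin Hbb-y was listed at 0 in SclKO and had 1.76 FPKM in the library labelled Gata12KO and 7.89 in WT, and close globin paralogues make that value uncertain. Cfap45 had 0.457, 0.684 and 1.22 FPKM in the same order. Cyp26a1 was thus the only one of the 4 with its highest value in the library labelled Gata12KO.

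Among 7 other receptors related to the retinoid receptors, 3 reached 1 FPKM and 0 were called in any comparison as reported. The oxysterol receptor gene Nr1h2 had 11.2 FPKM in SclKO, 10.1 in the library labelled Gata12KO and 10.2 in WT. Ppard, which can respond to retinoic acid carried by Fabp5, had 3.22, 4.88 and 3.78, and Rora had 2.28, 2.17 and 1.35.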
